A study of Equus caballus with 8 samples.

Results

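Homeobox and T-box genes, which encode transcription factors, were described in equine mesenchymal stem cells of bone marrow (BM-MSCs) cultured with and without transforming growth factor (TGF)-β2. They were taken by gene symbol alone: the HOX genes, their TALE cofactors (MEIS, PBX and PKNOX), the TGIF and IRX genes, the PRRX, ALX, PITX, DLX, MSX, NKX, EN, LHX, LMX1, BARX and SATB genes, the sine oculis-related genes such as SIX2, and the TBX genes. The rule found 80 genes among the 15266 named genes of the deposited table. The gene table of RefSeq for the horse assembly TB-T2T holds 120 symbols of this rule, and the other 40, such as HOXA13, HOXB4 and HOXC11, were not analysed here.

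BM-MSCs are stromal cells that adhere to plastic, grown here from marrow of the sternum. Cells of 4 horses, labelled D, J, L and W, were grown in low glucose DMEM with fetal bovine serum and, by the methods of the study, basic fibroblast growth factor. The marrow of each horse was divided, so that each of them gave a library of untreated cells and one of cells cultured with 1 ng/ml human recombinant TGF-β2 in the same medium. The labels give this exposure as lasting from isolation to passage 3 or 4, and the methods of the study give it as 3 passages. The cells were cultured without sorting, and the horses of the study were adult Thoroughbreds or Thoroughbred crosses.

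Homeobox proteins bind DNA through the homeodomain, and T-box proteins through the T-box domain. Both families set the identity of tissues along the body and limb axes in the embryo, and cultured stromal cells keep a pattern of HOX expression from the site they came from. The HOX genes lie in 4 clusters, HOXA to HOXD, numbered by paralogue group. TALE proteins bind DNA together with HOX proteins, PRRX, MSX and TBX genes act in limb and craniofacial mesenchyme, and TGIF proteins are corepressors that bind SMADs, the transcription factors activated by TGF-β receptors.

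Levels are normalized counts, reads per gene divided by a size factor per library. They were not divided by transcript length, so levels are compared between libraries and not between genes. The libraries held 39184554 to 57228675 reads in named genes, and 3 reads, used as a floor for counting error, corresponded to 2.02 to 3.60 normalized counts. Genes that reached 10 normalized counts in 4 or more of the 8 libraries were tested by limma on log2(normalized count + 1), a scale on which the changes of genes with few reads come out too small. Of the 80 genes, 77 were tested, and ALX1, LHX6 and TBX21 were not. A gene was called differentially expressed at a Benjamini-Hochberg adjusted p under 0.05, over the 14907 genes tested, and an absolute log2 fold change over 1. Standard errors of log2 fold changes are given as SE.

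As a check of the labelled cell type, the stromal markers THY1, CD44, ITGB1, ENG, NT5E and PDGFRB had at least 1609 normalized counts in every library, and of these THY1 was called lower after treatment (log2 fold change -2.21, limma adjusted p = 0.0494). The endothelial markers CDH5 and KDR reached at most 40.7, and KDR was called higher (2.27, limma adjusted p = 0.0362). Of the haematopoietic markers, PTPRC (CD45) lay between 1.19 and 110 normalized counts and was highest in untreated cells of horse J. That library also had 2437 of CD68 against 451 to 740 in the other untreated libraries, and the most ITGAL, at 53.9. CSF1R and SPI1 were at 1.35 each in it and were highest in untreated cells of horse L, at 147 and 52.8. CD14, CD34, PECAM1, LEPR, LYZ, TEK and VWF were not analysed here. The myofibroblast markers ACTA2, TAGLN and CNN1, 3 of 4 listed, were called higher after treatment, with log2 fold changes of 2.27, 1.33 and 3.10, and the fourth, MYH11, had -0.12 (limma adjusted p = 0.956). Leaving out horse D ended the calls of these 3 genes, of THY1 and of KDR in fits without the block, as did L or W for most of them. With the horse as a block, ACTA2, TAGLN, CNN1 and THY1 stayed called with any 1 horse left out. The blocked call of KDR was lost without horse D. The summed level of the 4 cycling markers MKI67, TOP2A, CCNB1 and CDK1 overlapped between groups, from 2898 to 10133 in untreated and from 1690 to 11716 in treated libraries. The part of other cell states in the results that follow was not tested, and in these bulk samples fewer cells of a type and less RNA per cell cannot be told apart.

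With TGF-β2 treatment a small group of these genes rose and another fell. HOXB9, NKX2-5, PKNOX2, MSX2 and DLX1 were called higher, and the 9 genes called lower included TBX2, MSX1, SIX2, PRRX1 and EN1. Of these, NKX2-5 passed the filter for testing through its treated libraries alone. Among untreated libraries, HOXB9 and PKNOX2 reached 10 normalized counts in that of horse L alone. Their treated libraries all did, and these were enough to pass the filter. The 5 of 77 called higher stand beside 5.59% of all genes tested, and the 9 called lower beside 5.87%. With the horse as a block, which compares the 2 libraries of each horse, 5 were called higher and 10 lower, where 6.83% and 7.31% of all genes were called. DLX1 was lost with the block, and DLX3 and MEIS3 were gained. With every library scaled to the same total, 4 genes were called higher and 13 lower, beside 3.94% and 10.3% of all genes. The median log2 fold change of the 77 genes was 0.02, beside 0.01 over all genes tested.

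**Figure D1:**
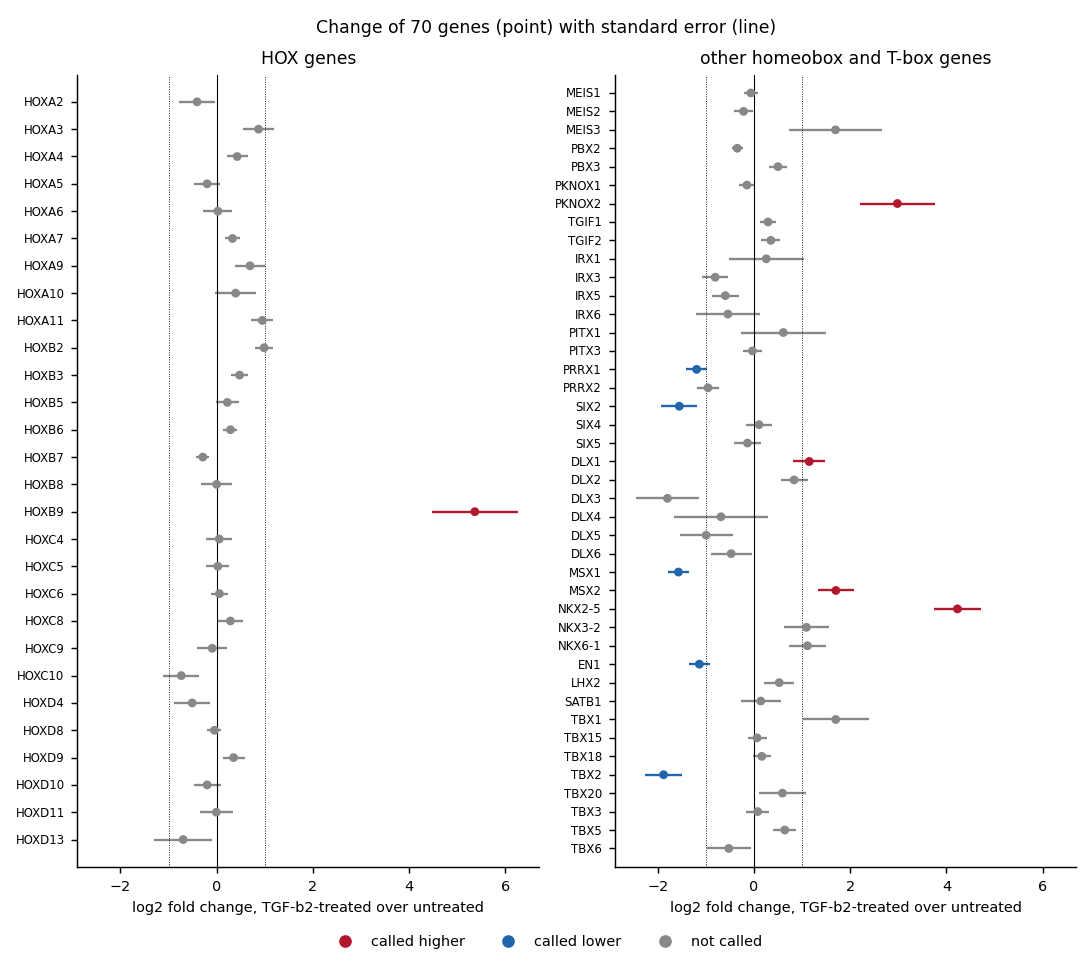
Log2 fold change of 70 of the 77 tested genes (x axis, TGF-β2-treated over untreated, n = 4 horses), with HOX genes on the left and the other families on the right. Points are estimates from limma and lines 1 standard error; red and blue mark genes called higher and lower, and dotted lines mark the threshold of 1. HOXB9, at 5.36, stands alone among the 28 HOX genes drawn, while the other families show 4 higher and 5 lower calls.

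For 20 of the 77 genes no treated value fell within the untreated range, 7 higher and 13 lower after treatment. The 7 include NKX2-5, which was tested only because its treated libraries passed the filter. Over all genes tested these shares were 13.9% higher and 13.9% lower. The change had the same sign in all 4 horses for 37 genes, 20 of them higher and 17 lower, beside 26.3% and 25.6% of all genes. Among the HOX genes 10 of 29 were higher in all 4 horses and 3 lower. Among the others this held for 10 and 14 of 48.

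HOXB9, a posterior gene of the HOXB cluster, had almost no reads in untreated cells. The untreated libraries of horses D, J and W held 0.870, 2.02 and 3.04 normalized counts of HOXB9, which were 1, 3 and 3 reads, and that of horse L 18.8. After treatment the same horses, in the order D, J, W and L, had 105, 67.4, 648 and 277. Every treated library lay above every untreated one. Its log2 fold change was 5.36 (SE 0.90, limma adjusted p = 0.00543). HOXB9 was called with any 1 horse left out, with log2 fold changes from 4.71 to 5.88. The ratio of the treated to the untreated mean, 44.3, rests on the reads of horse L in untreated cells and of horse W in treated cells: it was 138 without horse L and 20.7 without horse W.

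HOXB8, the neighbour of HOXB9 in the cluster, was not called. Its untreated libraries held 67.3 to 173 normalized counts and its treated libraries 81.6 to 121, and its log2 fold change was -0.00 (limma adjusted p = 0.999). HOXB7, the next gene along, had 671 ± 73.7 normalized counts untreated and 550.1 ± 67.2 treated (SD, n = 4; limma adjusted p = 0.166). The log2 ratio of HOXB9 to HOXB8 was taken within each library on normalized count + 1. Because of the added 1 it is not free of the scaling between libraries, above all where HOXB9 had few reads. It ran from -6.54 to -2.22 in untreated and from -0.81 to 2.41 in treated cells. In the RefSeq table of TB-T2T the spans of HOXB8 and HOXB9 overlap. The study counted unique hits per gene. How reads in the shared stretch were treated is not given in the sources used here, so these cannot be assigned to 1 of them with certainty.

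The other 28 HOX genes tested were not called. Their log2 fold changes ran from -0.74 for HOXC10 to 0.99 for HOXB2, with a median of 0.04. HOXA11 and HOXB2 came closest to a call. HOXA11, which patterns the forearm in the embryo, had 177, 239, 128 and 213 normalized counts in the untreated libraries of horses D, J, L and W. The treated libraries held 397, 396, 286 and 359, all above the untreated ones. The log2 fold change was 0.95, short of the threshold (SE 0.23, limma adjusted p = 0.0199). HOXB2, an anterior gene of its cluster, had 231 ± 51.9 normalized counts untreated and 452 ± 44.5 treated (SD, n = 4), without overlap (log2 fold change 0.99, limma adjusted p = 0.00798). HOXA11 was called without horse J in fits with and without the block and without horse W with the block, and HOXB2 without horse D or L in both fits. HOXC10 was called lower without horse J, at -1.13 (limma adjusted p = 0.0481).

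No HOXA gene was called. HOXA3 did not overlap between groups, with 281 to 781 normalized counts untreated and 854 to 1259 treated (log2 fold change 0.87, limma adjusted p = 0.0807). HOXA9 and HOXA10 were higher after treatment in each of the 4 horses, by 0.19 to 1.34 and 0.06 to 0.93 on the log2 scale, with limma adjusted p of 0.158 and 0.543. The 6 HOXC genes had log2 fold changes between -0.74 and 0.29. Of the HOXC genes, HOXC6 had the most reads, with 1796 ± 470.1 normalized counts untreated and 1823 ± 34.7 treated (SD, n = 4). The 6 HOXD genes lay between -0.70 and 0.35, and HOXD8 held 849 to 1072 normalized counts untreated and 772 to 1104 treated.

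**Figure D2:**
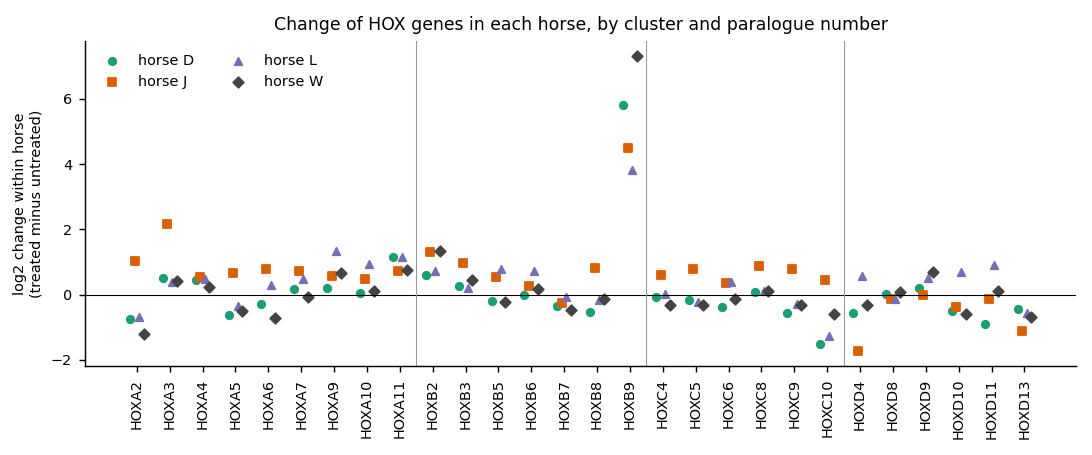
Log2 change within each horse (y axis, treated minus untreated) for 28 of the 29 HOX genes tested, ordered by cluster and paralogue number, with 1 symbol per horse. HOXB9 rose by 3.81 to 7.33 in the 4 horses, and horse J lay highest for many other genes, such as HOXA2, HOXA3 and HOXC5.

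HOX genes overlap each other and non-coding genes. In the RefSeq table of TB-T2T, 22 of the 29 HOX genes and 37 of all 77 genes overlap at least 1 other gene. Of the 14 called genes this holds for 6, and HOXB9 is the only one of them whose partner has a row in the deposited table.

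Among the TALE cofactors, PKNOX2 rose. The untreated libraries of horses D, J, L and W held 0.870, 2.02, 16.0 and 7.10 normalized counts of PKNOX2, of which D and J rest on 1 and 3 reads. The treated libraries held 27.4, 18.2, 70.1 and 76.9, and the groups did not overlap. Its log2 fold change was 2.98 (SE 0.77, limma adjusted p = 0.0274). Without the block the call was lost when horse D or W was left out, and with the block it was kept with any 1 horse left out. Its paralogue PKNOX1 had 1386 ± 206 normalized counts untreated and 1262 ± 256 treated (SD, n = 4; limma adjusted p = 0.581).

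PBX genes encode main partners of HOX proteins on DNA. PBX3 had 0.50 and PBX2 -0.35 on the log2 scale, each with the same sign in all 4 horses (limma adjusted p = 0.0951 and 0.0532).

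MEIS3, a cofactor of the same class, had the widest range between untreated horses of the 77 genes, 4.82 on the log2 scale. Its untreated libraries held 59.2, 10.8, 333 and 94.4 normalized counts in horses D, J, L and W, and its treated libraries 138, 105, 454 and 368. It was higher in all 4 treated cultures than in their untreated matches, by 0.45 to 3.17 on the log2 scale, but the groups overlapped. It was called with the horse as a block (limma adjusted p = 0.0388) and not without it (0.240), and the blocked call was lost without horse D or W. MEIS1 and MEIS2 were not called, at -0.06 and -0.22 on the log2 scale.

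The TGIF corepressors were not called. TGIF1 was higher in all 4 treated libraries than in the untreated library of the same horse, by 0.20 to 0.39 on the log2 scale, from 969 ± 148 to 1188 ± 191 normalized counts (SD, n = 4). Its limma adjusted p was 0.223, and its log2 fold change was 0.29, or -0.02 when every library was scaled to the same total. TGIF2 had a log2 fold change of 0.35 (limma adjusted p = 0.233). Of 10 partners of TGIF and SMAD proteins, SKIL, a SMAD corepressor, was called higher and SMAD3 lower, with log2 fold changes of 1.61 and -2.51 (limma adjusted p = 2.28e-04 and 2.75e-04).

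The 2 MSX genes moved in opposite directions. Both encode repressors that respond to bone morphogenetic proteins in limb and skull. MSX1 held 619, 455, 347 and 355 normalized counts in the untreated libraries of horses D, J, L and W and 174, 145, 143 and 123 in the treated ones. The treated range lay wholly under the untreated range. Its log2 fold change was -1.57 (SE 0.22, limma adjusted p = 0.00281), and it was called with any 1 horse left out. MSX2 rose from 15.7, 11.4, 29.2 and 18.3 normalized counts to 63.1, 35.3, 72.4 and 78.1 in the same order. No treated library was as low as any untreated one. Treatment changed MSX2 by 1.70 on the log2 scale (SE 0.37, limma adjusted p = 0.0148). Without the block its call was lost when horse D or W was left out, and with the block it was kept with any 1 horse left out. The log2 ratio of MSX2 to MSX1 within a library was likewise taken on normalized count + 1. It went from between -5.22 and -3.52 to between -2.002 and -0.64.

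NKX2-5, known as a factor of the early heart, was near the floor without treatment. The untreated library of horse D held 1 read and those of J, L and W none, while the treated libraries of horses D, J, L and W held 16, 10, 37 and 18 reads, or 19.1, 10.7, 42.5 and 21.6 normalized counts. Its mean was at least 8.94-fold higher after treatment, against a floor of 3 reads in each untreated library, and at least 6.70-fold with horse L left out. Only its treated libraries reached 10 normalized counts, so it was tested through the group in which it was high. Its limma adjusted p, 0.00142, is therefore no separate support for the rise. NKX3-2, which acts in sclerotome, had changes of 2.70 and 1.63 on the log2 scale in horses J and W, against 0.11 in D and -0.08 in L. It was not called (log2 fold change 1.09, limma adjusted p = 0.132). NKX6-1 had few reads, 7 to 17 untreated and 12 to 26 treated, and was not called either (1.11, limma adjusted p = 0.0708), though it was called without horse L.

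**Figure D3:**
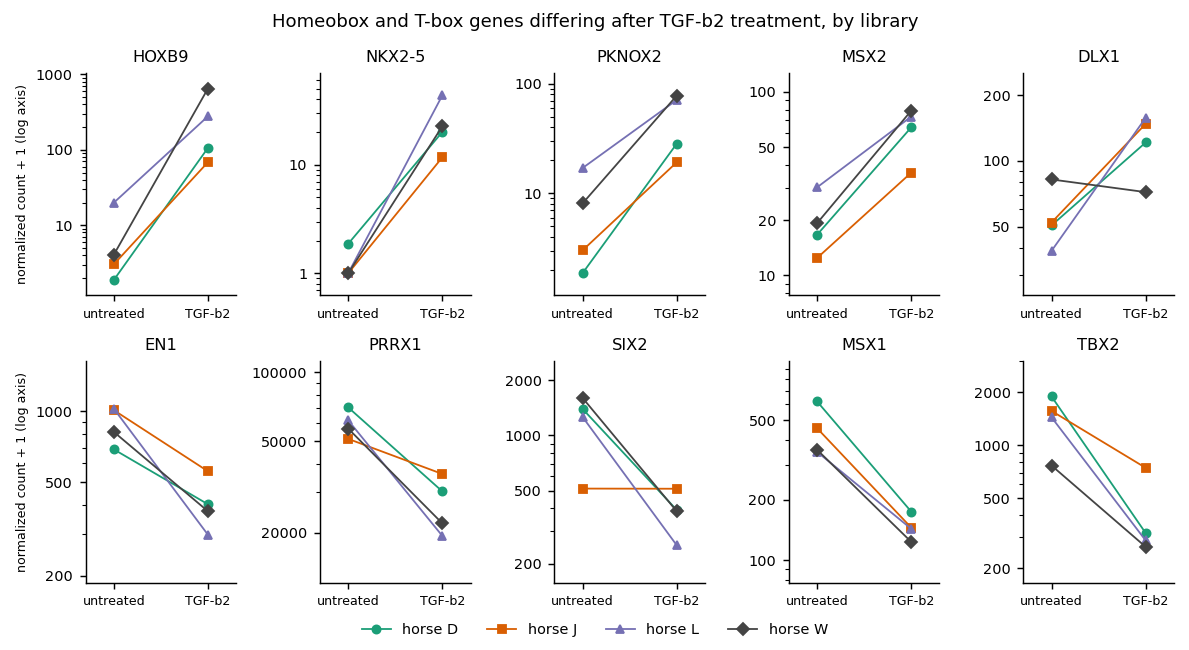
Normalized count + 1 (y axis, log scale, a separate range in each panel) of 10 of the 14 called genes in untreated and TGF-β2-treated cells, with a line joining the 2 libraries of each horse. Panels run from the largest increase, HOXB9, to the largest decrease drawn, TBX2. Horse J shows a flat line for SIX2, and horse W one for DLX1.

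PRRX1, which marks limb bud and craniofacial mesenchyme, fell in every horse. The untreated libraries of horses D, J, L and W held 70392, 51334, 61801 and 56908 normalized counts and the treated ones 30312, 36099, 19396 and 21995. All treated libraries were under all untreated ones. Treatment changed it by -1.19 on the log2 scale (SE 0.21, limma adjusted p = 0.00698), and the call was lost without horse D or W in both fits. PRRX2 had 8915 ± 2262 normalized counts untreated and 4598 ± 1186 treated (SD, n = 4), with a log2 fold change of -0.95 (limma adjusted p = 0.0183). It stayed under the fold threshold with all 4 horses and passed it without horse J, at -1.09, or with every library scaled to the same total. The log2 ratio of PRRX2 to PRRX1 ran from -2.92 to -2.56 in untreated and from -2.97 to -2.27 in treated libraries.

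PITX3, of the same paired-like class, was not called, at -0.03 on the log2 scale.

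SIX2, which acts in kidney progenitors, fell, and SIX4 and SIX5 were not called. SIX2 held 1391, 1257 and 1597 normalized counts in the untreated libraries of D, L and W, and 391, 251 and 384 after treatment. Its libraries of horse J held 512 and 511, a change of -0.00 on the log2 scale. Treatment changed SIX2 by -1.55 on the log2 scale (SE 0.37, limma adjusted p = 0.0207), and its call was kept only when the horse left out was J, in both fits. SIX4 had 1685 ± 545 and 1739 ± 256 normalized counts (SD, n = 4; limma adjusted p = 0.813), and SIX5 had a log2 fold change of -0.13.

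EN1 (engrailed 1), which marks ventral limb ectoderm and some dermal fibroblast lineages, fell from 687, 1009, 1024 and 816 to 401, 555, 298 and 375 normalized counts in horses D, J, L and W. The groups did not overlap. Treatment changed it by -1.13 on the log2 scale (SE 0.22, limma adjusted p = 0.00868). The call was lost without horse L, at a log2 fold change of -0.92, and without horse W, at a limma adjusted p of 0.0658.

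DLX genes, which pattern the jaw and act in bone formation, were mixed. DLX1 rose in horses D, J and L, from 49.6, 51.2 and 37.7 to 120.3, 147 and 156 normalized counts. In horse W it went from 81.2 to 70.9, so that the groups overlapped. Its log2 fold change was 1.15. The limma adjusted p was 0.0400, and with the horse as a block 0.0723, which ended the call. When 1 horse was left out, the call was kept only without horse W. Its neighbour DLX2 was higher in all 4 treated cultures than in the matched untreated ones, from 99.0 ± 28.6 to 176 ± 47.7 normalized counts (SD, n = 4), with a log2 fold change of 0.83 (limma adjusted p = 0.0641). The block gave DLX2 a limma adjusted p of 0.0452, with the change still under the fold threshold. DLX3 was lower in each horse, from 55.7, 248, 185 and 65.9 to 28.6, 91.0, 27.6 and 14.4, and was called with the block (limma adjusted p = 0.0146) but not without it (0.0850). The blocked call of DLX3 was lost without horse W.

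DLX5 and DLX6, neighbours that act in osteoblasts, went one way in horse J and the other way in the rest. DLX5 held 2937, 1794 and 1950.0 normalized counts in untreated and 775, 379 and 855 in treated cells of horses D, L and W, against 571 untreated and 1476 treated in horse J. DLX6 was higher after treatment in J, from 139 to 314, and lower in the others. Their log2 fold changes over 4 horses were -0.99 and -0.47 (limma adjusted p = 0.231 and 0.463). Without horse J, DLX5 was called lower, at -1.78 (limma adjusted p = 0.0148).

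SATB1, a chromatin organizer with a homeodomain, was higher after treatment in horse J alone, from 101 to 374 normalized counts, and was not called (limma adjusted p = 0.846).

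LHX6, a LIM homeobox gene of interneurons and jaw mesenchyme, was under the limit for testing, with 4.35, 0.673, 9.42 and 5.07 normalized counts in the untreated libraries of horses D, J, L and W and 16.7, 33.2, 20.7 and 7.21 in the treated ones. It was higher in each treated culture than in its untreated match, and the groups overlapped. LHX2 had a log2 fold change of 0.52 and was not called (limma adjusted p = 0.271).

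The 4 IRX genes tested were not called. IRX3 was lower in all 4 horses, from 3568, 5157, 3002 and 2917 to 2224, 3048, 1392 and 1827 normalized counts in D, J, L and W. Its log2 fold change was -0.81, under the fold threshold (limma adjusted p = 0.0607, and 0.00555 with the horse as a block). IRX3 was called only with every library scaled to the same total. IRX5 was lower in D, L and W and higher in J, with a log2 fold change of -0.59 (limma adjusted p = 0.171).

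Of the 8 T-box genes tested, TBX2, a repressor that acts in limb and heart, was called. It held 1898, 1570.0, 1445 and 768 normalized counts in the untreated libraries of horses D, J, L and W and 317, 745, 287 and 264 in the treated ones. The highest treated library, that of horse J, came close to the lowest untreated one, that of horse W, but the groups did not overlap. Treatment changed it by -1.88 on the log2 scale (SE 0.39, limma adjusted p = 0.0118). Without the block the call was lost when horse D or L was left out, and with the block it was kept with any 1 horse left out. TBX3, its close paralogue, had 723 ± 134 and 781 ± 229 normalized counts (SD, n = 4; limma adjusted p = 0.851). The log2 ratio of TBX3 to TBX2 was -1.40 to -0.40 in untreated and 0.22 to 1.70 in treated libraries.

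TBX5, which specifies the forelimb, was higher in each treated culture than in its untreated match, from 261 ± 73.2 to 404 ± 92.0 normalized counts (SD, n = 4), with a log2 fold change of 0.64 (limma adjusted p = 0.0841). With the horse as a block the limma adjusted p of TBX5 was 0.0244, and the change stayed under the fold threshold. TBX20, a cardiac factor, held 1115 to 5380.4 normalized counts untreated and 2414 to 5318 treated and was not called. TBX15 and TBX18, which act in limb and craniofacial mesenchyme, had log2 fold changes of 0.06 and 0.16. TBX1 and TBX6 had 1 to 29 reads per library and were not called. TBX1 was higher in all 4 horses, by 0.02 to 2.85 on the log2 scale (log2 fold change 1.70, limma adjusted p = 0.110). It was called with the block when horse J was left out. TBX6 had a log2 fold change of -0.52 (limma adjusted p = 0.459).

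TBX21 (T-bet), the factor of type 1 T and natural killer cells, was not tested, since only the untreated library of horse J passed 10 normalized counts, with 207 reads or 139 normalized counts. The other untreated libraries held 5, 1 and 9 reads in D, L and W, and no treated library held any. Against a floor of 3 reads in each treated library its mean was at least 11.1-fold lower after treatment, and at least 1.36-fold lower without horse J. The library with the TBX21 reads was also the one with the most PTPRC, at 110 normalized counts against 1.74 to 41.5 in the other untreated libraries. The 5 haematopoietic markers of 8 that had a row summed to 499 to 2604 in untreated and 388 to 715 in treated libraries. CSF1R and SPI1 were at 1.35 each in the library with the TBX21 reads. The part of haematopoietic cells in these reads was not tested.

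Horse J often stood apart. In 18 of the 77 genes the change in horse J had one sign and the changes in the other 3 horses all had the opposite sign, against 2, 5 and 4 genes for D, L and W. Over all genes tested this held for 16.5% in J and for 4.55%, 7.52% and 5.33% in the others. The untreated library of J was the lowest of the 4 for 43 of the 77 genes, where it was the lowest for 35.9% of all genes. These counts were made after the values were seen. Without horse J, 14 genes were called lower in place of 9, and 15 with the block, beside 6.67% and 8.71% of all genes called lower in the same fits.

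**Figure D4:**
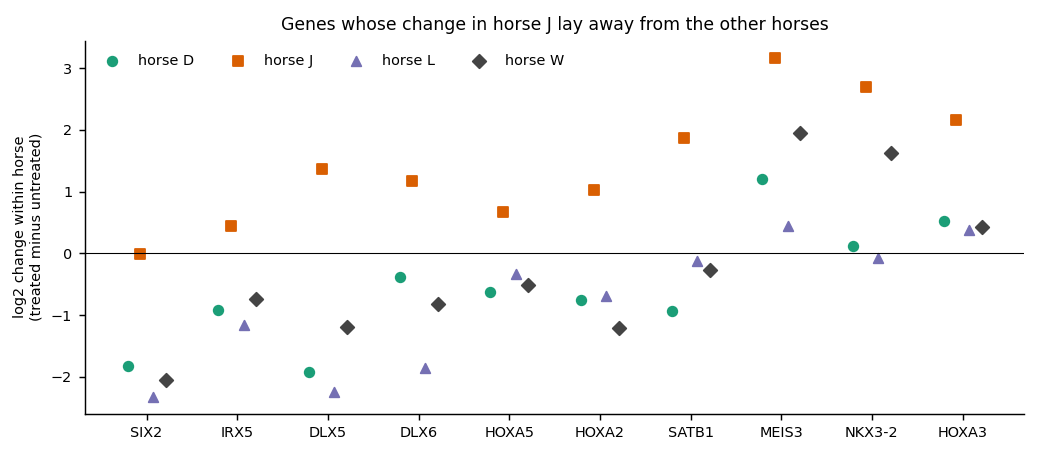
Log2 change within each horse (y axis, treated minus untreated) for 10 genes, picked after their values were seen, in which horse J (orange squares) lay away from the other horses. SIX2 stood near 0 in J and was lower in D, L and W, while DLX5, DLX6, HOXA2, HOXA5 and SATB1 were higher after treatment in J alone.

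The range over the 4 untreated libraries was wider than the log2 fold change for 60 of the 77 genes, or 77.9%, close to the 75.7% of all genes tested. ALX1, a craniofacial gene, was read almost only in horse L, with 60 reads untreated and 32 treated against 0 to 2 in every other library. DLX4 was read mainly in horse J, with 215 normalized counts untreated and 152 treated, and 9.61 to 31.1 in the libraries of the other horses. PITX1, which specifies the hindlimb, was low in both libraries of horse D, at 8.70 and 13.1, and IRX1 in both of horse J, at 7.41 and 11.8. HOXD13 kept its order of horses, with 16.5, 29.4, 70.0 and 73.5 normalized counts untreated in D, W, J and L and 11.9, 18.0, 32.1 and 49.4 treated. HOXA10 was highest in horse W in both groups, at 1288 and 1401. With 1 library per horse and group, differences between horses were not tested. The horse with the highest level was the same in both groups for 22 of the 77 genes, or 28.6%, beside 42.5% of all genes tested.

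**Figure D5:**
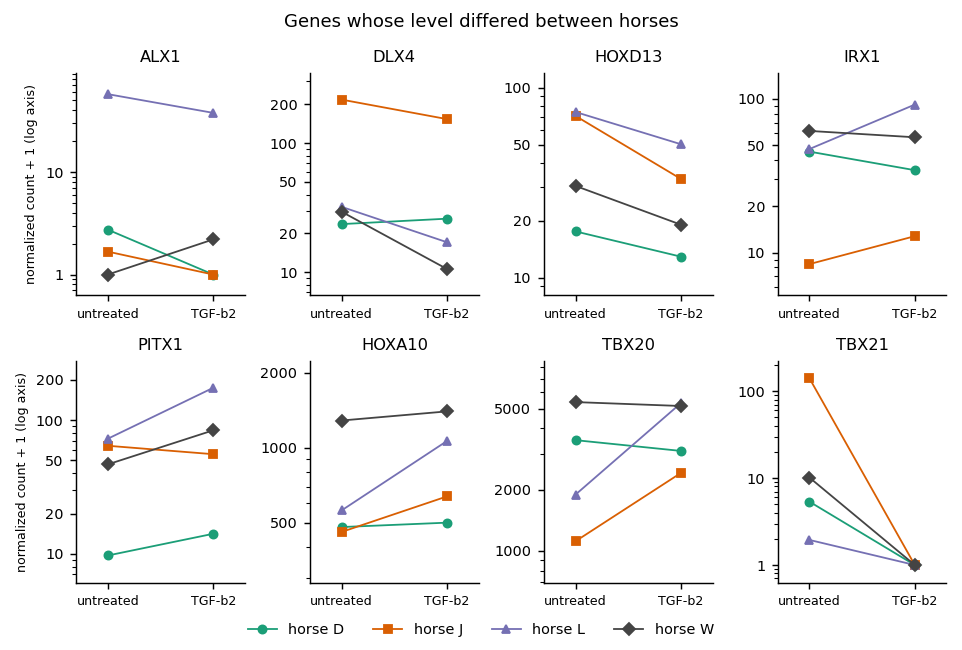
Normalized count + 1 (y axis, log scale, a separate range in each panel) of 8 genes, picked after their values were seen, with a line joining the 2 libraries of each horse. ALX1 was read mainly in horse L and DLX4 in horse J, PITX1 was low in horse D, and the 207 reads of TBX21 in untreated cells of horse J stand against none in the treated libraries.

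Other genes that act with these families were listed by role. Of 60 further homeobox genes listed, 33 were tested, and PAX6 and MKX were called higher and MEOX2 and ZEB2 lower. PAX6, known from eye development, rose from 1.35 to 6.09 normalized counts in untreated to 60.9 to 124 in treated cells (log2 fold change 4.11, limma adjusted p = 9.89e-04). MKX (mohawk), a tendon factor, had 203 to 993 normalized counts untreated and 939 to 7455 treated, overlapping narrowly (log2 fold change 2.96, limma adjusted p = 0.0293). MEOX2 and ZEB2, a somite gene and a SMAD-binding repressor, had log2 fold changes of -3.51 and -1.44. HOPX, a homeodomain protein that does not bind DNA, was called lower with the block only. The T-box gene MGA was not called.

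Chromatin regulators that act at HOX clusters were not called. All 30 tested of 31 listed, among them the polycomb genes EZH2, SUZ12 and EED and the trithorax gene KMT2A, stayed within -0.97 to 0.95 on the log2 scale, with a median of 0.09. Some missed only the fold threshold. DOT1L and KDM5B were higher (0.83 and 0.95, limma adjusted p = 0.00662 and 0.0467) and CBX6 and CBX7 lower (-0.50 and -0.83, 0.0145 and 0.0484). Of the 30, 3 were higher and 3 lower without overlap between groups, beside 13.9% each way of all genes. Retinoic acid is an upstream signal of HOX genes, and of the 9 genes of its pathway tested, CYP26A1, which degrades retinoic acid, was called higher and the receptors RARG and RXRA lower. CYP26A1 held 73.1 normalized counts in the untreated library of horse D and 0.673 to 1.01, or 1 read, in the others, and 141 to 869.5 after treatment (log2 fold change 6.07, limma adjusted p = 0.0111). RARG and RXRA had log2 fold changes of -2.04 and -1.06. With the block RARB and CYP26B1 were called lower as well.

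Of 9 tested factors of cartilage, tendon and bone, SCX and SOX9 were called higher and SOX5 and TWIST1 lower. SCX (scleraxis), the tendon factor, had a log2 fold change of 2.40 (limma adjusted p = 0.0205), and SOX9, which directs cartilage formation, 1.21 (0.0332). TWIST1, which restrains osteoblast differentiation, held 2306 to 3634 normalized counts untreated and 468 to 669 treated, with a log2 fold change of -2.47 (limma adjusted p = 2.90e-04). SOX5 had -2.65 (0.00528). SP7 (osterix), an osteoblast factor, was higher in horse J after treatment, from 1029 to 3705 normalized counts, and lower in D, L and W. Without the block, leaving out 1 horse ended the calls of MEOX2, MKX and SCX (without D, L or W), SOX9 (without D, J or W), CYP26A1 (without L or W) and RXRA (without D). With the block, MEOX2, MKX, SCX and CYP26A1 stayed called with any 1 horse left out. The blocked call of SOX9 was lost without D or W and that of RXRA without D. The calls of PAX6, ZEB2, SKIL, SMAD3, SOX5, TWIST1 and RARG were kept with any 1 horse left out in both fits. PAX6 was in these fits only through its treated libraries. Of the calls made only with the block, those of HOPX and CYP26B1 were lost without D, L or W and that of RARB without D.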

How the data were processed

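Poly(A)-selected RNA was sequenced from 4 untreated and 4 TGF-β2-treated cultures of 4 horses. Per the labels and methods, the authors trimmed reads (Trimmomatic 0.36), aligned them to EquCab 3.0 (STAR 2.5.2b), counted unique hits per gene (featureCounts, Subread 1.5.2) and used DESeq2. The authors deposited normalized counts, a signal of gene counts divided by 1 factor per library. All values (100%) were whole multiples, within 0.01 reads, of 1 step per library, so reads were recovered. A row without a gene name (at most 0.0531% of the signal) was left out. The table listed no gene under 81 reads in all.

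The main test was limma 3.58.1 (R 4.3.3, trend) on log2(normalized count + 1), with no term for the horse, since the methods of the study name none. Alternatives were the horse as a replicate block, pseudocounts of 0.5 and 5, no filter and a filter at 50, scaling to the total or by TMM, limma without the trend, DESeq2 1.42.0 and edgeR 4.0.16 on recovered reads with and without the block, other thresholds and each horse left out. Libraries of 1 horse come from the same animal, and their deviations from group means correlated at 0.386 to 0.609. The tests were checked on simulated data. Genes named with full values were those called with or without the block, those of highest mean level in each family, and those with an adjusted p of 0.05 to 0.1 and a log2 fold change beyond 1. Other genes named were chosen after their values were seen. The members and lists were chosen with earlier results of these data known. No sequence or transcript length was used here. Some genes of these families are counted but not reported here by name.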

Additional observations from a re-analysis of the deposited data

Results flagged for a closer look

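Of 154 groups of 4 libraries (77 genes, untreated and treated), 12 had a highest or lowest library far from the other 3, by Dixon's criterion at 95%. The criterion flags about 1 group in 20 of normally distributed values. It was applied to normalized counts without a log, which need not be so distributed, so 12 cannot be set against that share. DLX4 was far higher in horse J in both groups, at 215 normalized counts untreated (next 31.1) and 152 treated (next 25.0). HOXA10 was high in the untreated library of horse W, at 1288 (next 561), and HOXC4 in that of horse D, at 354 (next 228). HOXD8 was low in the untreated library of horse J, at 849 (next 1048). HOXB9 in untreated horse L, at 18.8 (next 3.04), and NKX2-5 in untreated horse D, at 0.870 (next 0), rest on 20 reads and 1 read. Among treated libraries, horse J was high for TBX2 at 745 (next 317), SATB1 at 374 (next 241) and PBX2 at 1575 (next 1479.5). Treated horse L was high for HOXA6 at 330 (next 264) and low for HOXB8 at 81.6 (next 119).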

How the results depend on the processing

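Across the alternatives the number of genes called higher (5) and lower (9) stayed within 1.5 times, except as follows. A filter at 50 normalized counts left 2 genes called higher, since NKX2-5, MSX2 and PKNOX2 were then not tested. Of all genes passing that filter 5.34% were called higher. An adjusted p under 0.01 left 2 higher and 5 lower, beside 2.99% and 2.95% of all genes. With 1 horse left out, 3 to 7 genes were called higher and 3 to 15 lower, in fits with and without the replicate block. Over all genes the shares in these fits ran from 2.44% to 7.67% higher and from 2.37% to 8.71% lower. The lower counts reached 14 and 15 without horse J and 3 without D or W, and fits on 3 horses had fewer samples. Of all genes 6.67% and 8.71% were called lower without J, 2.37% without D and 2.70% without W. The replicate block itself gave 5 higher and 10 lower, and the calls it changed, DLX1, DLX3 and MEIS3, are given above. DESeq2 gave 5 and 10, beside 6.27% and 7.49% of all genes, and edgeR 5 and 9, beside 5.21% and 6.06%. Scaling to the same total moved the median gene by -0.31 on the log2 scale, ended the call of DLX1 and added calls of genes lower after treatment such as DLX3, IRX3 and PRRX2. Of 589 alternative values for 27 genes, 512 kept their direction and side of the threshold, 47 lost a call, 24 gained one and 6 changed sign, none of them of a called gene: HOXC6, which was at -0.254 under total scaling and between -0.0485 and 0.202 with 1 horse left out (below 0 without J or L), and TGIF1, which was at -0.0198 under total scaling. The cause was not tested. Genes near the floor of 3 reads, HOXB9, PKNOX2 and NKX2-5 in untreated cells, are limited by depth.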
